A study of Mus musculus with 18 samples.

Results

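The comparison described here set mice with Hira deleted in hepatocytes against wildtype mice given the same virus. Its members were chosen from the sample labels by genotype and virus, and they are 12 of the 18 mice whose liver RNA was sequenced. HIRA KO mice (3 males and 3 females) were HIRA fl/fl animals given AAV8 Tbg-Cre, an adeno-associated virus in which the hepatocyte-active Tbg promoter drives Cre recombinase. WT AAV Tbg-Cre mice (called WT below, 3 males and 3 females) were wildtype animals given AAV8 Tbg-Cre. All 12 mice were injected at 6 months of age and were sampled 12 months later, so virus, Cre and age were shared and the genotype differed. The remaining 6 mice, HIRA fl/fl animals given AAV8 Tbg-MCS without Cre, were left out. The labels do not say whether wildtype and floxed mice were littermates, so the floxed allele and any other difference between the colonies cannot be told apart from the loss of Hira. Whole liver was sequenced after selection of poly-A RNA, and a higher or lower level of a gene can therefore come from more or fewer cells of a type or from more or less RNA per cell, which cannot be told apart.

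Histone chaperones hand newly made histones to DNA. HIRA is the core of a chaperone complex for H3.3, the form of histone H3 that cells keep making when they are not copying their DNA, and its partners include the products of Ubn1 and Cabin1. A cell that has stopped dividing, as most adult hepatocytes have, renews its H3 largely with H3.3, and genes being transcribed turn it over fastest. Silent repeats are served by another H3.3 chaperone, made of DAXX and ATRX. Hepatocytes also carry out most of the liver's synthetic and detoxifying work, under a set of transcription factors in which HNF4A has a central place.

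Counts summed to between 15210023 and 24389407 per mouse. Levels are given as CPM, counts scaled to a common library total with TMM factors. The 3 HIRA KO male libraries stood apart from the other 9. The ratio of genes holding 4 to 9 counts to genes holding 10 to 99 was 0.125 to 0.153 in them and 0.480 to 0.552 in the others, and counts were above 0 for 16329 to 17821 genes, where the other libraries reached 19473 to 22245. Xist, the X-inactivation transcript of female cells, was at 7.76, 9.56 and 13.8 CPM in HIRA KO males and at 0.986, 0.491 and 0.731 CPM in WT males, while females held 402 to 460.1 CPM and 383 to 507 CPM. CT010467.1, a gene chosen after its values were seen, was at 7251, 2247 and 5224 CPM in HIRA KO males, at 255 to 483 CPM in WT males, at 239.8 to 416 CPM in HIRA KO females and at 369 to 1319 CPM in WT females. Of the 22254 tested genes, 2661 had 0 counts in every HIRA KO male, and 940 of these had counts in every WT male. The number of called genes, in all and in each list, is therefore given over both sexes and also for females alone, in a separate fit of the 6 female libraries. What part the properties of the male libraries had in any result was not tested, except where a value for females alone is given. Alb, the albumin gene that marks hepatocytes, was among the highest genes in every mouse (103178 to 171058 CPM).

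Hira (ENSMUSG00000022702.16, mm10 chr16:18877037-18970309, plus strand) was read first, since it was the deleted gene. Its level was 3.79, 3.05 and 9.63 CPM in the 3 HIRA KO males and 7.37, 6.82 and 7.18 CPM in the 3 WT males. In females it was 3.73, 3.13 and 4.42 CPM in HIRA KO and 5.21, 4.48 and 6.25 CPM in WT. All 3 HIRA KO females and 2 of the 3 HIRA KO males lay below every WT mouse of their sex, and the library labelled HIRA KO male replicate 3 lay above all of them. Over both sexes the log2 fold change of Hira was −0.44 (SE 0.28, adjusted p = 0.347 by edgeR's quasi-likelihood test), within the spread between mice. Without that library it was −0.78 (SE 0.20, adjusted p = 0.0238), while over the fits that each left out 1 of the other 11 mice it lay between −0.52 and −0.31, with adjusted p from 0.331 to 0.485. Reads were counted over the whole gene in whole liver, so these values measure neither the deleted part of the gene nor the HIRA protein, and other liver cells keep an intact gene. That library is kept in the values of HIRA KO males that follow.

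Of the 2 genes for H3.3 itself, H3f3a was called higher in HIRA KO. H3f3a (ENSMUSG00000060743.12) was at 54.7, 67.5 and 56.5 CPM in HIRA KO males against 28.2, 24.1 and 27.7 CPM in WT males. It was at 61.4, 60.7 and 54.0 CPM in HIRA KO females against 28.4, 31.3 and 28.0 CPM in WT females. The groups did not overlap in either sex, and H3f3a rose 2.12-fold (log2 fold change 1.08, SE 0.10, adjusted p = 2.13e-05). H3f3b, the second gene for the same protein, was at 135 to 187 CPM in HIRA KO and 101 to 131 CPM in WT, with a log2 fold change of 0.47 (SE 0.11, adjusted p = 0.0131), below the fold required for a call, and it did not pass the test in females alone (0.52, adjusted p = 0.0673). Both genes have processed copies in the genome that can share reads with them. Of the 12 members of the HIRA complex and H3.3 deposition list, H3f3a was the 1 called. In females alone it passed the adjusted p but not the fold (log2 fold change 0.98, adjusted p = 0.00146). Chaperone genes of the list other than Hira had log2 fold changes of −0.06 (Ubn1), 0.24 (Ubn2), −0.03 (Cabin1), 0.46 (Asf1a), −0.03 (Atrx), −0.13 (Daxx) and 0.17 (Chaf1a), none of them past the test. Chaf1a and Chaf1b encode parts of CAF-1, which per the paper deposits histones during DNA replication, unlike HIRA. Asf1b and Chaf1b, with log2 fold changes of 1.51 and 0.12, were under 2 CPM in every mouse. Beside this list, 2.49% of all tested genes were called higher.

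**Figure D1:**
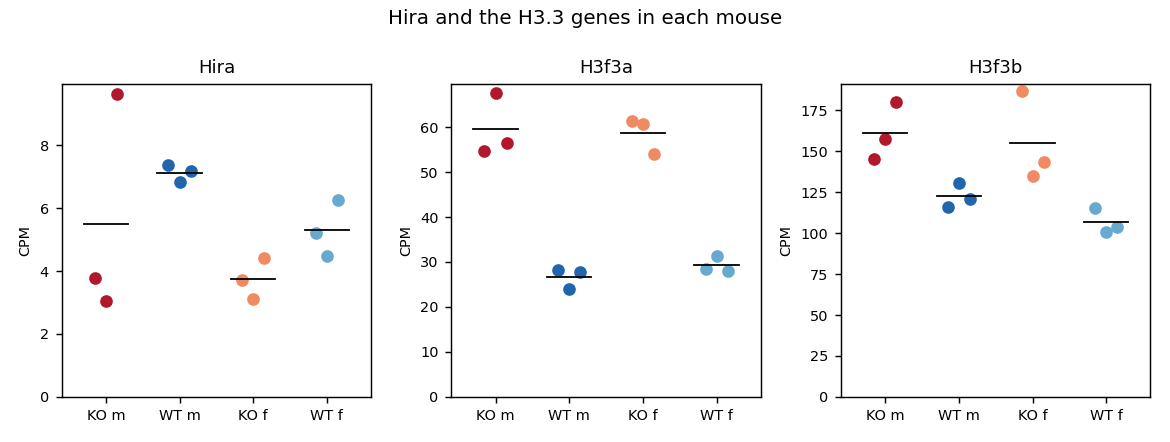
Levels of Hira, H3f3a and H3f3b in CPM (linear axis from 0) in each of the 12 mice, by group (KO, HIRA KO; WT, WT AAV Tbg-Cre; m, males; f, females); each point is 1 mouse and each line a group mean. H3f3a lay above 50 CPM in all 6 HIRA KO mice and below 32 CPM in all 6 WT mice, while 1 HIRA KO male had the highest Hira level.

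A gene was called where the absolute log2 fold change was above 1 and the Benjamini-Hochberg adjusted p of edgeR's quasi-likelihood test was below 0.05. Over both sexes 554 genes were called higher in HIRA KO (2.49% of 22254 tested) and 353 lower (1.59%). Within males 350 were called higher (1.57%) and 412 lower (1.85%), and within females 229 higher (1.03%) and 136 lower (0.611%). Of these, 95 were called higher and 43 lower in both sexes, and 2 were called lower in males and higher in females. In the fit of females alone, 659 of 19389 tested genes were called higher (3.4%) and 319 lower (1.65%), and 348 of the higher and 135 of the lower genes had also been called over both sexes. Without WT female replicate 3 the higher count over both sexes was 368, and the lower count was 670 and 686 without HIRA KO male replicates 1 and 2, and 225, 233, 214 and 223 without WT female replicates 2 and 3 and WT male replicates 2 and 3. Of the 353 genes called lower over both sexes, 149 had 0 counts in every HIRA KO male. The higher calls were densest among genes with a mean of 1 to 5 CPM, where 234 of 3377 tested genes were called, and the lower calls were densest above 100 CPM, where 44 of 1314 were called.

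Every HIRA KO mouse lay above every WT mouse of its sex for 592 genes (2.66% of those tested) and below for 1030 (4.63%). Of the genes called over both sexes, 308 higher and 198 lower genes met this condition. The 12 of each direction with the smallest adjusted p among those averaging at least 5 CPM in the higher genotype are described next.

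Among the higher genes the smallest adjusted p belonged to Cyp2d41-ps, annotated as a pseudogene of the CYP2D cluster. It was at 55.2, 49.6 and 71.9 CPM in HIRA KO males and 19.8, 19.1 and 12.8 CPM in HIRA KO females, against 0.830 to 1.28 CPM and 0.248 to 0.655 CPM in WT (log2 fold change 5.58, SE 0.23, adjusted p = 9.01e-09), and reads may be shared with other CYP2D genes. Noct encodes nocturnin, a phosphatase of NADP(H) with a daily rhythm in liver. It was at 243, 254 and 252 CPM in HIRA KO males against 39.1, 42.4 and 50.5 CPM, and at 449, 493 and 615 CPM in HIRA KO females against 92.1, 61.6 and 74.0 CPM, a 6.23-fold rise (log2 fold change 2.64, SE 0.13, adjusted p = 5.4e-08). Scd2, a fatty acid desaturase with low expression in normal adult liver, was at 75.8, 348 and 325 CPM and 877, 242 and 371 CPM in HIRA KO males and females against 9.67 to 12.3 CPM and 9.57 to 12.9 CPM (log2 fold change 4.98, SE 0.40, adjusted p = 5.27e-06). Cdhr2, a cadherin of epithelial microvilli, was at 12.1, 20.0 and 17.4 CPM and 23.2, 15.2 and 19.9 CPM in HIRA KO, while WT mice held 0 to 0.347 CPM (log2 fold change 6.43, SE 0.37, adjusted p = 2.03e-07).

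Krt23, a keratin absent from most hepatocytes, was at 32.8, 16.2 and 18.0 CPM in HIRA KO males against 1.09, 1.08 and 1.13 CPM and at 37.0, 33.5 and 31.7 CPM in HIRA KO females against 2.89, 3.22 and 3.37 CPM (log2 fold change 3.88, SE 0.20, adjusted p = 6.01e-08). Itih5, which encodes a hyaluronan-binding protein of the extracellular matrix, was at 81.4 to 109.9 CPM in HIRA KO and 9.99 to 20.0 CPM in WT, a 6.51-fold rise. The remaining higher genes, with their log2 fold changes over both sexes, were 5330417C22Rik (5.28), the MyoD-family inhibitor Mdfi (4.39), the stem and duct cell surface protein Prom1 (2.12), the interferon-inducible Ifi27l2b (2.24), the zinc finger gene Zfp612 (1.76) and Nat8 (2.69), whose product acetylates cysteine conjugates in detoxification. For all 12 the adjusted p over both sexes was 1.12e-05 or lower, and every one was also called in females alone.

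**Figure D2:**
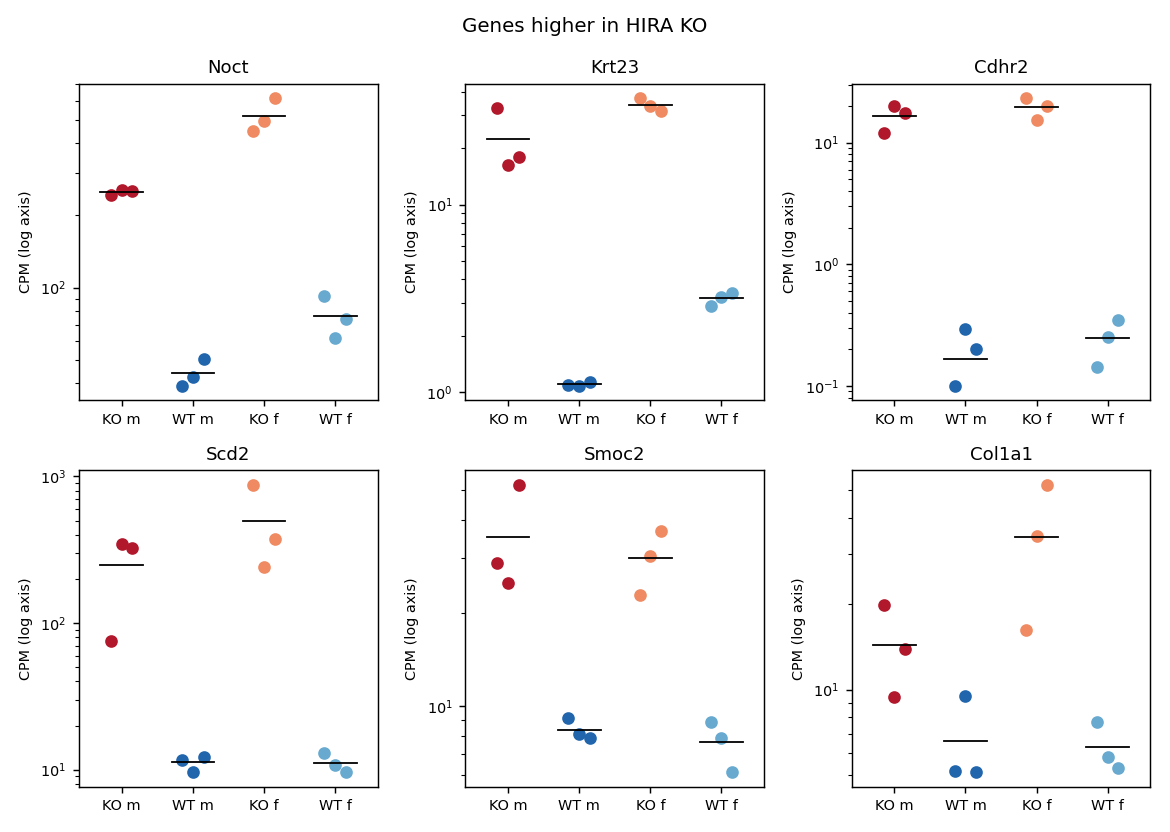
Levels in CPM (log axis) of 6 genes called higher in HIRA KO, by mouse and group (KO, HIRA KO; WT, WT AAV Tbg-Cre; m, males; f, females); points are mice, lines are group means, and values below 0.1 CPM are drawn at 0.1 CPM. Noct, Krt23, Cdhr2, Scd2 and Smoc2 separate the genotypes in both sexes, and 1 HIRA KO male lies among the WT males for Col1a1.

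Among the lower genes most encode enzymes and transporters of hepatocytes. Cyp2c37, a cytochrome P450 that oxidises arachidonic acid, was at 98.2, 96.1 and 88.2 CPM in HIRA KO males against 468, 369.5 and 373 CPM and at 300.2, 197 and 153 CPM in HIRA KO females against 1434, 1415 and 1510.1 CPM, and fell 5.36-fold (log2 fold change −2.42, SE 0.15, adjusted p = 4.89e-07). Slc10a1 encodes NTCP, the sodium-dependent carrier that takes bile acids from blood into hepatocytes. Its level was 183, 111 and 137 CPM in HIRA KO males against 942, 869 and 918 CPM and 156, 82.7 and 52.1 CPM in HIRA KO females against 693, 803 and 853 CPM (log2 fold change −2.84, SE 0.22, adjusted p = 5.27e-06). In each sex the highest HIRA KO level of Slc10a1 lay far below the lowest WT level. Ces3b, a carboxylesterase, showed the largest fold of these 12 genes and was at 51.8, 24.2 and 28.0 CPM and 14.0, 6.39 and 9.13 CPM in HIRA KO males and females against 325, 696 and 384 CPM and 124, 179 and 114 CPM (log2 fold change −3.79, SE 0.27, adjusted p = 2.45e-06).

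The other 9 lower genes had log2 fold changes between −2.46 (Hcn3) and −1.14 (Dgat2). Slc2a2, the hepatocyte glucose transporter GLUT2, was at 195 to 219 CPM in HIRA KO and 404 to 532 CPM in WT (log2 fold change −1.15, SE 0.10). Gldc, a subunit of the glycine cleavage system, was at 64.4 to 90.8 CPM in HIRA KO and 156 to 182 CPM in WT (log2 fold change −1.20, SE 0.10). Cdo1, which oxidises cysteine, was at 807 to 1129.6 CPM in HIRA KO and 1929.6 to 2442 CPM in WT (log2 fold change −1.18, SE 0.10). Dgat2, which makes triglyceride, was the least changed of them, and the protease gene Hgfac, whose product activates hepatocyte growth factor, had a log2 fold change of −1.38. Cyp2c23 (log2 fold change −1.66), the retinol dehydrogenase Rdh7 (−1.29), the chemokine gene Ccl9 (−1.82) and the ion channel gene Hcn3 completed the set. In females alone these 12 genes were also called lower.

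**Figure D3:**
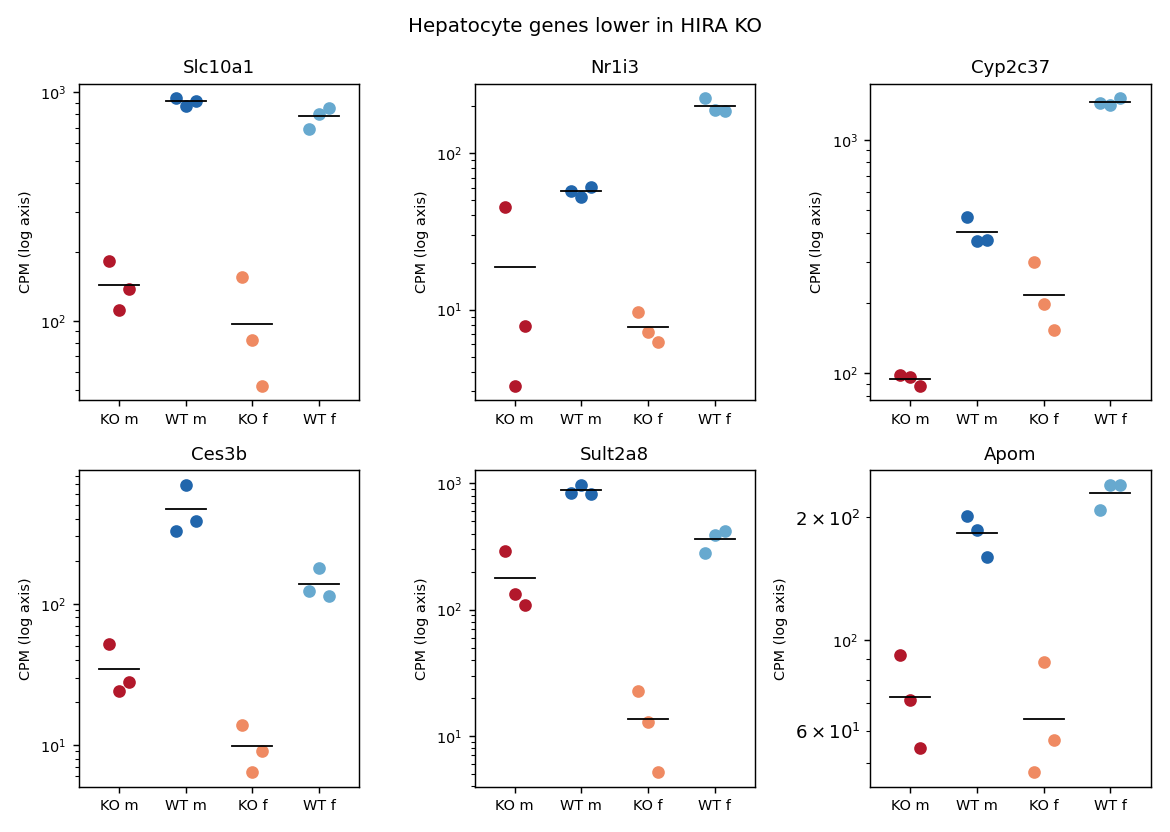
Levels in CPM (log axis) of 6 hepatocyte genes called lower in HIRA KO, by mouse and group (KO, HIRA KO; WT, WT AAV Tbg-Cre; m, males; f, females); points are mice and lines are group means. The genotypes do not overlap in either sex for any of the 6 genes, and HIRA KO male replicate 1 lies close to the WT males for Nr1i3.

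Promoters are shown for the 2 higher and the 2 lower genes with the smallest adjusted p that had an entry in the RefSeq promoter table (build GRCm38.p6, 250 bases before to 50 after the start), which held 15 of these 24 genes. They are shown because the genotypes were most clearly separated at these genes. Capitals mark CAAAG on either strand (CTTTG where it lies on the other strand), 5 bases at the core of the HNF4 consensus.
Noct promoter (chr3:51224197-51224496, plus strand), higher in HIRA KO: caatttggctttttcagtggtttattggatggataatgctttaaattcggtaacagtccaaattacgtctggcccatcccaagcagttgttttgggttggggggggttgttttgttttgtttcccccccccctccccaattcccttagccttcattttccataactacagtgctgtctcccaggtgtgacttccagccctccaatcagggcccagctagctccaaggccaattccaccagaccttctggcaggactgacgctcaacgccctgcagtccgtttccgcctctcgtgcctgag
Krt23 promoter (chr11:99493071-99493370, minus strand), higher in HIRA KO: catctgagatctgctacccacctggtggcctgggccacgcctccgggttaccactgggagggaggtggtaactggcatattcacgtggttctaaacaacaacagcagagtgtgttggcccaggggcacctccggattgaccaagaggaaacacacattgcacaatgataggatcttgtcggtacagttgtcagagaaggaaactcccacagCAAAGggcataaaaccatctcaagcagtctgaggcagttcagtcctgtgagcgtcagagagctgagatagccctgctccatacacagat
Cyp2c37 promoter (chr19:39992174-39992473, plus strand), lower in HIRA KO: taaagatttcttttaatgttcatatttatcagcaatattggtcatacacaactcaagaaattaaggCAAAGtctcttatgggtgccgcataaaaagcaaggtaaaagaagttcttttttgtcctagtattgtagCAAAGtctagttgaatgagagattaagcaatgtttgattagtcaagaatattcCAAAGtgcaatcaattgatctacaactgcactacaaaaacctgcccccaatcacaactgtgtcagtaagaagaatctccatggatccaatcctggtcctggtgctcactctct
Ces3b promoter (chr8:105083505-105083804, plus strand), lower in HIRA KO: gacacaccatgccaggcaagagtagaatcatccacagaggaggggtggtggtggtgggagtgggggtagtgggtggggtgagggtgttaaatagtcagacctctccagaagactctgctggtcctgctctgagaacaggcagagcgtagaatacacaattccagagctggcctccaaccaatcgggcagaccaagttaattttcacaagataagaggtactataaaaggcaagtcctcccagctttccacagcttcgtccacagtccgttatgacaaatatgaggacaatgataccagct

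CAAAG was found 3 times in the Cyp2c37 window, 1 time in the Krt23 window and 0 times in those of Noct and Ces3b. These letters are common. They occurred in 53.9% of all 32851 promoters in the table, and in 53.5% of the 13554 tested genes that had one. The share was 64.7% of 224 genes called lower and 55% of 358 genes called higher. A match describes the window and says nothing of binding by any factor.

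Gene lists were read by the number of members called beside the background shares of 2.49% higher and 1.59% lower, and by the median log2 fold change, which was 0.04 over all tested genes. From here on, a signed value in parentheses after a gene is its log2 fold change of HIRA KO over WT, over both sexes unless a sex is named. The members of different lists overlap. 

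**Figure D4:**
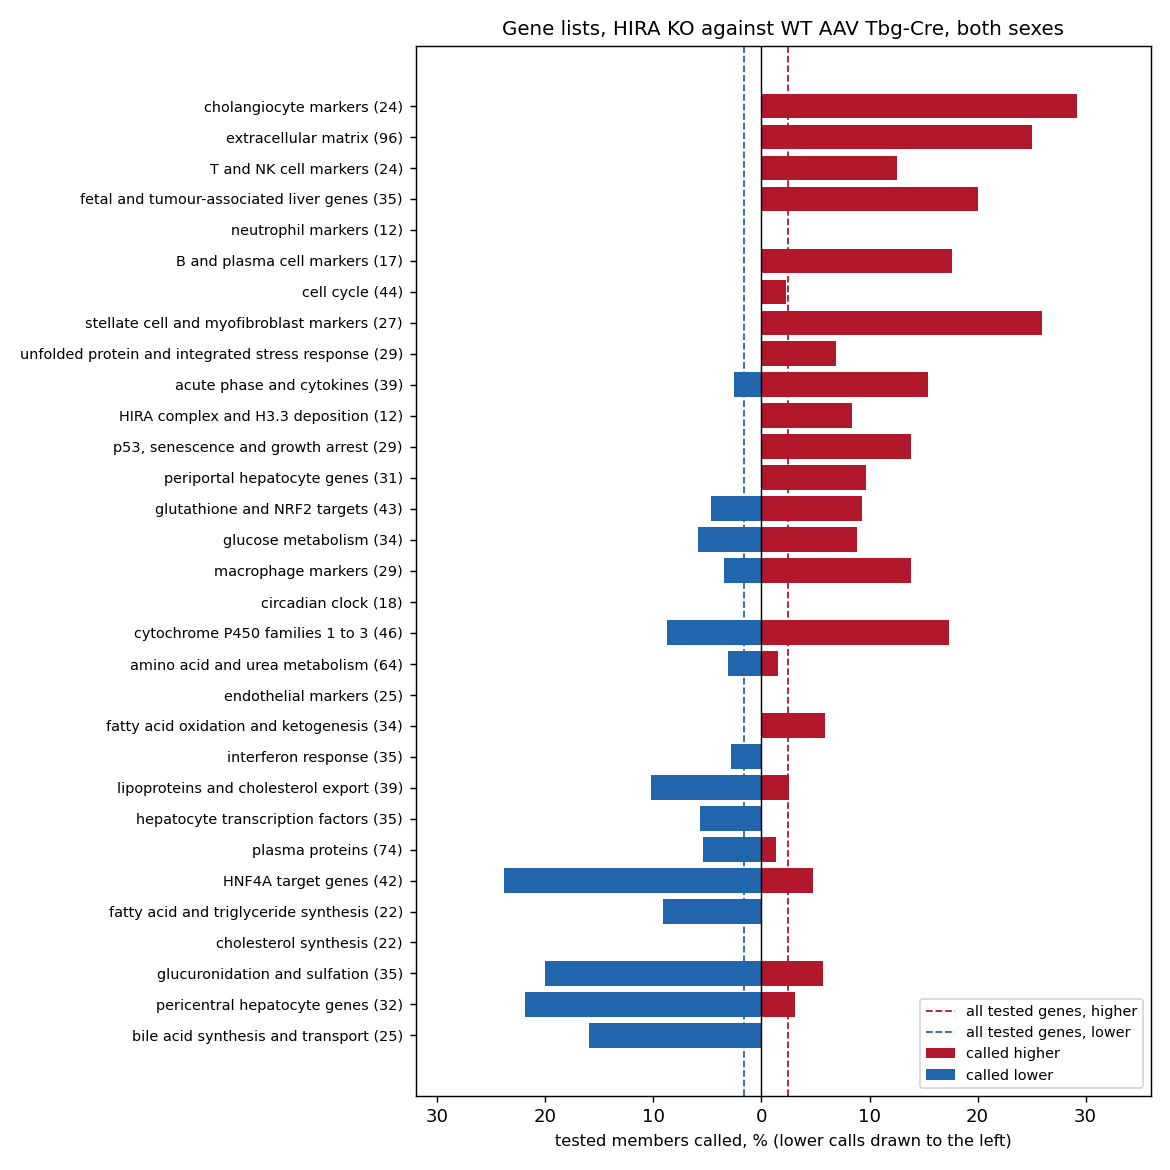
Share of tested members called higher (to the right) and lower (to the left) in HIRA KO over both sexes, in %, for 31 gene lists ordered by median log2 fold change; the number of tested members stands in brackets and dashed lines give the shares over all tested genes. Cholangiocyte, extracellular matrix and stellate cell lists had members called higher and none called lower, and bile acid genes had members called lower and none called higher.

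Called bile acid genes were lower. Of 25 bile acid genes 4 were called lower and 0 higher, with a median of −0.50, and in females alone 3 were called lower. Besides Slc10a1 they were Slc27a5, Abcc3 and Slco1a1. Slc27a5, whose product links bile acids to coenzyme A before conjugation, was at 374 to 563 CPM in HIRA KO and 923 to 1344 CPM in WT (log2 fold change −1.22, SE 0.12, adjusted p = 3.04e-05). Abcc3, a basolateral export pump, had a log2 fold change of −1.82 (SE 0.26, adjusted p = 0.00064). Slco1a1, an uptake carrier with high levels in males, was at 106, 35.0 and 22.7 CPM in HIRA KO males against 423, 537 and 505 CPM, and in females it stayed under 10 CPM in both genotypes. In females alone Slco1a1 did not pass the test (log2 fold change −1.35, adjusted p = 0.0579). Cyp7a1, the rate-limiting enzyme of bile acid synthesis, was at 23.6, 84.8 and 76.9 CPM and 144, 83.1 and 112 CPM in HIRA KO males and females and at 58.0, 98.3 and 128 CPM and 29.4, 80.9 and 91.8 CPM in WT, and overlapped in both sexes (log2 fold change 0.07, SE 0.32, adjusted p = 0.964).

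Of 39 genes of lipoproteins and cholesterol export 4 were called lower and 1 higher (median −0.23), and in females alone 1 lower (Apom) and 1 higher (Lpl). Apom, an apolipoprotein of HDL, was at 91.8, 71.2 and 54.5 CPM in HIRA KO males against 202, 187 and 159.6 CPM and at 47.3, 88.2 and 56.7 CPM in HIRA KO females against 209, 241 and 239.6 CPM (log2 fold change −1.59, SE 0.16, adjusted p = 4.26e-05). Pltp, which transfers phospholipid between lipoproteins, had a log2 fold change of −1.87 (adjusted p = 0.000326), and Abcg8, part of the sterol exporter into bile, one of −1.05 (adjusted p = 0.000454). In females alone neither met the call, Pltp at −1.27 (adjusted p = 0.0551) and Abcg8 at −0.99 (adjusted p = 0.0124). Apoa1, the main HDL apolipoprotein, was at 994 to 3289 CPM in HIRA KO males against 8269.5 to 10913 CPM (log2 fold change −2.24, adjusted p = 0.00879). In females its groups overlapped, at 1972, 6950.2 and 3629.8 CPM and 6130.4, 6557 and 4536 CPM, and the test was not passed (−0.46, adjusted p = 0.741). The difference between the sexes for Apoa1 was itself not past the test (adjusted p = 0.255). Lpl, lipoprotein lipase, was the 1 member called higher (1.89, adjusted p = 0.0181). It was at 36.1, 389.8 and 321 CPM in HIRA KO females and at 59.4, 11.3 and 35.3 CPM in HIRA KO males, against 18.2 to 40.0 CPM in WT, so that HIRA KO female replicates 2 and 3 carried it. The Lpl call was lost in 4 of the 12 fits that left out 1 mouse (HIRA KO female replicate 2, WT female replicates 1 and 3, WT male replicate 3), and that of Abcg8 without HIRA KO female replicate 1.

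Cholesterol synthesis gave 0 calls of 22 genes over both sexes by edgeR and by DESeq2 (median −0.43), with 10 members lower and 1 higher at an unadjusted p under 0.05. Within males 6 were called lower (median −0.78, against 0.00 over all genes), and within females 0 by edgeR and DESeq2 (median −0.11), with 2 lower at an unadjusted p under 0.05. In females alone 0 were called higher and 0 lower (median −0.13). Hsd17b7 was at 43.5, 31.5 and 31.3 CPM in HIRA KO males against 75.3, 90.9 and 105 CPM (log2 fold change −1.35, adjusted p = 0.00326), and Sqle, squalene epoxidase, at 46.3, 57.2 and 62.1 CPM against 156, 155 and 167 CPM (−1.53, adjusted p = 0.00608). In females Sqle was at 131, 76.0 and 55.1 CPM in HIRA KO and 61.7, 109 and 101 CPM in WT, which overlapped. Cyp51 (−1.20), Hmgcs1 (−1.13) and Idi1 (−1.26) were also called in males, with Dhcr7 the sixth. By edgeR's test of the difference, 0 members differed between the sexes at an adjusted p under 0.05. Of 22 genes of fatty acid and triglyceride synthesis, Dgat2 and Elovl3 (−1.81, adjusted p = 0.0147) were called lower over both sexes and none higher, and without HIRA KO female replicate 1 or HIRA KO male replicate 3 the lower count was 4. In females alone Dgat2 was the 1 called lower. Elovl3 makes very long fatty acids and was at 127, 33.4 and 48.3 CPM in HIRA KO males against 269.6, 364 and 218 CPM, but under 4 CPM in all females. Of 34 genes of fatty acid oxidation, Acot2 and Cyp4a31 were called higher over both sexes and neither in females alone. Acot2 was at 13.1, 17.3 and 9.32 CPM in HIRA KO males against 4.36, 3.63 and 4.19 CPM and overlapped in females (0.47 in females alone, adjusted p = 0.273). Cyp4a31 was at 34.4, 8.52 and 3.26 CPM against 1.30, 1.96 and 1.80 CPM in males and was lost in 10 of the 12 fits that left out 1 mouse, all but those without HIRA KO male replicates 2 and 3, and that of Acot2 was lost without HIRA KO male replicate 2 or WT female replicate 3. Over both sexes 0 members of this list were called lower by edgeR, with 11 lower at an unadjusted p under 0.05 and 1 called by DESeq2. In females alone 3 were called lower, Cyp4a10 (−1.28), Cyp4a14 (−2.20) and Vnn1 (−1.66). Within males 4 were called higher and 1 lower, and Cyp4a10 (2.64, adjusted p = 0.0142) and Cyp4a14 (2.61, adjusted p = 0.0324) were among the higher ones. Cyp4a10 was at 1314, 362 and 168 CPM in HIRA KO males against 121, 78.8 and 95.7 CPM and at 341, 208 and 160.5 CPM in HIRA KO females against 723, 484 and 485 CPM, so that its direction was opposite in the sexes. The difference between the sexes did not pass the test for Cyp4a10 (adjusted p = 0.0574) or Cyp4a14 (adjusted p = 0.0527).

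Drug-metabolising enzymes moved in both directions. Of 46 tested genes of cytochrome P450 families 1 to 3, 8 were called higher and 4 lower, and in females alone 3 higher and 9 lower. Within males 9 were called higher and 2 lower (median 0.26), and within females 2 and 6 (median −0.44). The difference between the sexes passed the test for 4 members. Of the higher calls, Cyp2b13 (7.88 in males), Cyp2b9 (5.38) and Cyp2a22 (4.51) did not pass in females (0.20, 0.19 and 0.04). Cyp2d9 was called in females (3.07) and not in males (0.26). Cyp2c37, Cyp2c23 and Cyp2c50 (−1.58, adjusted p = 0.00189) were among the lower members. Cyp2c55 was at 43.0, 75.9 and 85.1 CPM in HIRA KO males against 12.7, 14.7 and 21.4 CPM and at 58.8, 39.2 and 86.3 CPM in HIRA KO females against 2.70, 4.43 and 6.30 CPM, and rose 7.59-fold (log2 fold change 2.92, SE 0.26, adjusted p = 1.17e-05). Genes of one CYP subfamily lie in clusters of close copies, and reads can be split between them.

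Glutathione transferases also moved in both directions. Of 43 glutathione and NRF2 target genes 4 were called higher and 2 lower, over both sexes and in females alone with the same numbers. Gsta1 was at 31.3, 54.1 and 56.3 CPM in HIRA KO males against 5.45, 1.28 and 1.80 CPM and at 38.2, 11.8 and 11.7 CPM in HIRA KO females against 1.28, 1.46 and 0.843 CPM (log2 fold change 4.07, SE 0.41, adjusted p = 3.5e-05). Gsta2 (1.64), Gsta4 (1.28) and Gstp2 (2.63) were also called higher. Gstm3 was at 31.5 to 55.8 CPM in HIRA KO and 66.2 to 141 CPM in WT, without overlap within either sex (−1.33, adjusted p = 7.95e-05), and Gstp3 had a log2 fold change of −1.65 (adjusted p = 0.000171). The Gsta genes and the Gstp genes are close copies whose counts are uncertain.

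Several sulfotransferase genes were lower. Of 35 tested genes of glucuronidation and sulfation 7 were called lower and 2 higher over both sexes, and 11 lower and 1 higher in females alone, where the median was −0.88. Within males 1 was called lower and 2 higher (median 0.00). Of the lower calls, Sult2a7 (−2.58), Sult3a1 (−3.59) and Ugt3a1 (−1.12) were above 0 in males (1.34, 0.10 and 0.07), none past the test there. Sult2a8, which sulfates bile acids, was at 22.9, 12.8 and 5.13 CPM in HIRA KO females against 283, 387 and 421 CPM, and at 290.1, 134 and 108 CPM in HIRA KO males against 843, 976 and 832 CPM (log2 fold change −3.53, SE 0.32, adjusted p = 1.7e-05). Sult3a1, a transferase of female liver, was at 1.44, 0.506 and 0 CPM in HIRA KO females against 32.1, 119 and 128 CPM, and was under 2 CPM in all males. In females alone its log2 fold change was −7.33 (SE 0.78, adjusted p = 0.000691). Sult1a1 (−1.11) and Sult1b1 (−1.01) were also called lower, with no overlap in either sex. Sult1e1, the oestrogen sulfotransferase, moved the other way, at 2.54 to 5.33 CPM in HIRA KO against 0 to 1.09 CPM (3.94, adjusted p = 0.000337), and Ugt2b37 was the second higher member (2.90, adjusted p = 0.00552). It had 582 counts in HIRA KO female replicate 1 and 88 and 103 in the other two HIRA KO females, against 52, 50 and 21 in WT females. Its log2 fold change was 2.02 without HIRA KO female replicate 1, and it did not pass the test in females alone (adjusted p = 0.0533). The count of lower members was 4 in place of 7 without HIRA KO female replicate 2, without WT female replicate 3 and without WT male replicate 1, and the call of Sult3a1 was lost without HIRA KO female replicate 2, WT male replicate 1 or WT male replicate 3. The Sult1b1 call was lost without HIRA KO female replicate 3, HIRA KO male replicate 2, WT female replicate 3 or WT male replicate 1. That of Ugt3a1 was lost in 10 of the 12 fits, all but those without HIRA KO female replicate 1 or HIRA KO male replicate 2.

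By position in the lobule, pericentral genes gave more lower calls than periportal genes, a difference that was not tested. Of 32 genes of hepatocytes near the central vein 7 were called lower and 1 higher (median −0.48), and in females alone 13 were called lower (median −0.73). Gulo, which makes vitamin C, was at 135 to 239 CPM in HIRA KO and 339 to 446 CPM in WT (−1.23, adjusted p = 7.47e-05). Glul, the glutamine synthetase of the last hepatocyte rows, was at 520.1, 385 and 347 CPM in HIRA KO females against 842, 979 and 1012 CPM (−1.18, adjusted p = 0.00181) and at 513, 502 and 549.8 CPM in HIRA KO males against 639.9, 568 and 724 CPM (−0.30, adjusted p = 0.255). The glutamate transporter Slc1a2 was likewise called in females (−2.09, adjusted p = 0.000488) and not in males (−0.40, adjusted p = 0.286). The difference between the sexes did not pass the test for Glul (adjusted p = 0.184) or Slc1a2 (adjusted p = 0.0627). The amino acid exchanger Slc1a4 was the 1 pericentral gene called higher (1.11), and 2 were without HIRA KO male replicate 2. Of 31 genes of hepatocytes near the portal vein, Tat, Cdh1 and Sox9 were called higher over both sexes and in females alone. Over both sexes 0 were called lower by edgeR and DESeq2 and in females alone 1, with a median over both sexes of 0.01 and 12 members lower at an unadjusted p under 0.05. The Cdh1 call was lost without HIRA KO female replicates 2 or 3, HIRA KO male replicate 3, WT female replicate 1 or WT male replicate 3.

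Most called HNF4A targets were lower. Of 42 listed targets 10 were called lower and 2 higher (median −0.37), and 11 lower and 2 higher in females alone. The lower count stayed between 9 and 11 in the fits that each left out 1 mouse. Many of these genes stand in the lists above, among them Slc10a1, Slc2a2, Slc27a5, Apom and Rdh7. Hnf4a itself was at 316, 426 and 269 CPM in HIRA KO males against 373, 642 and 528 CPM and at 337, 417 and 422 CPM in HIRA KO females against 563, 539 and 489 CPM, with a log2 fold change of −0.52 (SE 0.15, adjusted p = 0.0361), below the fold required for a call, and it did not pass the test in females alone (−0.47, adjusted p = 0.0749). The groups overlapped in males and did not overlap in females. The 2 members called higher, Tat and G6pc, encode enzymes of tyrosine breakdown and of glucose release. Tat was at 1458 to 2866 CPM in HIRA KO against 626 to 1424 CPM (1.03, adjusted p = 0.00261), a call lost in 4 of the 12 fits that left out 1 mouse (HIRA KO female replicate 1, WT female replicate 2, WT male replicates 1 and 2). The G6pc call (1.04, adjusted p = 0.0156) was lost in 6 of them (HIRA KO female replicates 1 and 2, HIRA KO male replicate 2, WT female replicates 2 and 3, WT male replicate 2).

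Of 35 hepatocyte transcription factor genes 2 were called lower and none higher, with a median of −0.24, and in females alone 3 lower and 1 higher. Nr1i3 encodes CAR, the nuclear receptor that induces CYP2B and other detoxifying genes. It was at 9.65, 7.17 and 6.21 CPM in HIRA KO females against 226, 189 and 187 CPM (log2 fold change −4.71, SE 0.68, adjusted p = 0.00193). In males it was at 45.2, 3.25 and 7.82 CPM against 57.8, 52.9 and 60.8 CPM, where replicate 1 of HIRA KO lay close to the wildtype mice, and the male contrast did not pass the test (−1.61, adjusted p = 0.131). Ppara, the receptor that drives fatty acid oxidation genes, was at 13.9, 23.7 and 17.9 CPM in HIRA KO females against 45.8, 58.9 and 42.7 CPM and at 23.2, 21.6 and 21.3 CPM in HIRA KO males against 33.6, 25.2 and 49.2 CPM (−1.06, adjusted p = 0.00148). The Ppara call was lost without WT female replicate 2 or WT male replicate 3.

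In amino acid metabolism, Gldc and Cdo1 were the 2 members called lower of 64, and Tat the 1 called higher (median −0.14), with 4 lower in place of 2 without HIRA KO female replicate 1 and 2 higher in place of 1 without HIRA KO male replicate 1. In females alone 3 were called higher and 3 lower. The Tat call was described above. Of 34 glucose genes, Slc2a2 and Pklr were called lower, and Pkm, Hk2 and G6pc higher, while in females alone G6pc was the 1 called higher and the same 2 genes were lower. Pklr and Pkm encode the liver and the non-hepatocyte forms of pyruvate kinase. Pklr was at 28.7 to 142 CPM in HIRA KO and 161 to 450.2 CPM in WT (−1.63, adjusted p = 0.00383), and Pkm at 30.0 to 65.1 CPM and 12.2 to 26.8 CPM (1.24, adjusted p = 0.00115), each without overlap within a sex. Hk2, the hexokinase of muscle and fat, was at 8.24, 7.95 and 7.87 CPM in HIRA KO males against 1.30, 1.18 and 1.40 CPM and overlapped in females (0.37 in females alone, adjusted p = 0.648). Of 74 plasma protein genes 4 were called lower and 1 higher, and in females alone 3 lower and 2 higher, while 20 lay below wildtype in every mouse of both sexes and 5 above, beside 4.63% and 2.66% of all tested genes. Alb was not among the lower ones (log2 fold change 0.31, SE 0.13, adjusted p = 0.157). The count of lower plasma protein genes was 8 without HIRA KO female replicate 2, and 2 without WT female replicate 2, WT female replicate 3 or WT male replicate 2.

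The called genes of the extracellular matrix were all higher over both sexes. Of 96 members 24 were called higher over both sexes, and 0 lower by edgeR and DESeq2, with 3 lower at an unadjusted p under 0.05. In all, 82 members had a log2 fold change above 0, and the median was 0.81. In females alone 31 were called higher (median 0.83), and within males 7 (median 0.51). Col1a1, the main fibrillar collagen of scar, was at 16.2, 34.6 and 52.3 CPM in HIRA KO females against 7.72, 5.79 and 5.31 CPM, and at 19.8, 9.40 and 13.9 CPM in HIRA KO males against 5.19, 9.47 and 5.12 CPM (log2 fold change 1.79, SE 0.28, adjusted p = 0.00121). Smoc2, a matricellular protein, was at 22.8 to 51.8 CPM in HIRA KO and 6.10 to 9.13 CPM in WT (2.02, SE 0.20, adjusted p = 2.66e-05). Thbs1 (2.16), Col3a1 (1.27), the growth factor gene Pdgfa (1.20) and Col1a2 (1.25) were also called. Col3a1 was at 47.7, 113 and 155 CPM in HIRA KO females against 27.2 to 31.2 CPM and at 58.9, 35.2 and 39.6 CPM in HIRA KO males against 25.2 to 30.8 CPM. HIRA KO female replicate 3 had the highest Col1a1 and Col3a1, and replicate 1 the lowest of the HIRA KO females. Without HIRA KO female replicate 3, 9 members were called in place of 24, and without HIRA KO male replicate 3, 28. It was 13 without HIRA KO female replicate 2, WT female replicate 2, WT female replicate 3 or WT male replicate 1, 15 without WT male replicate 2 and 11 without WT male replicate 3. The summed level of the list did not follow the count in males, at 2669 to 3109.7 CPM in HIRA KO males against 3158 to 3722 CPM, and in females it was 3118 to 4612 CPM against 3647 to 3939 CPM.

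Markers of stellate cells and myofibroblasts, which produce this matrix, gave 7 higher and 0 lower calls of 27, and 9 higher in females alone. Within males 1 was called higher and 0 lower. Those called over both sexes included Col1a1, Col3a1, Col1a2, Nes and Lum, several of which also stand in the matrix list, and the Lum call was lost without HIRA KO female replicate 3. Their summed level was 918 to 1451 CPM in HIRA KO females against 786 to 792 CPM, and 747 to 892 CPM in HIRA KO males against 629 to 739 CPM. Of 25 endothelial markers 0 were called by edgeR or DESeq2 over both sexes, with 7 lower and 0 higher at an unadjusted p under 0.05. In females alone 1 was called higher. Their summed levels overlapped in males (497 to 626 CPM against 549.7 to 669 CPM) and in females (520.3 to 637 CPM against 607 to 751 CPM).

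Cholangiocyte markers, the genes of bile duct epithelium, had the highest median of the lists plotted (1.05). Of 24 members 7 were called higher and 0 lower over both sexes, with 11 higher by DESeq2 and with no filter on low counts, and 8 were called higher in females alone. Within males 5 were called higher and 1 lower. Over both sexes 20 members had a log2 fold change above 0 and 4 below. St14 was among the latter, between −3.02 and −1.37 in the fits that each left out 1 mouse. It had at most 3 counts in each HIRA KO male. Krt23 and Prom1 led this list. Krt19, a duct keratin, was at 18.8, 9.61 and 10.3 CPM in HIRA KO males against 1.92, 1.67 and 1.53 CPM (2.91, adjusted p = 0.00652), and in females at 6.18, 13.0 and 6.36 CPM against 6.35, 2.22 and 1.39 CPM, which overlapped (1.35, adjusted p = 0.203). Spp1, osteopontin, was at 145 to 209 CPM and 167 to 251 CPM in HIRA KO males and females against 67.1 to 80.6 CPM and 69.9 to 162 CPM (1.06, adjusted p = 0.00263). Sox9, a transcription factor of ducts and periportal hepatocytes, had a log2 fold change of 1.13 (adjusted p = 0.0123). In females alone Krt19 (1.32, adjusted p = 0.118) and Spp1 (0.89, adjusted p = 0.0688) did not pass the test, and Sox9 was called (1.29, adjusted p = 0.0164). Krt7 and Epcam, which define ducts, were not called. Krt7 was at 7.52, 9.71 and 0.880 CPM and 2.13, 2.67 and 2.84 CPM in HIRA KO males and females against 0.830, 1.96 and 1.60 CPM and 6.30, 1.06 and 0.595 CPM (0.99, adjusted p = 0.313), and Epcam at 6.92, 4.39 and 3.42 CPM and 8.80, 12.6 and 16.4 CPM against 1.97, 3.78 and 3.66 CPM and 7.20, 4.89 and 1.29 CPM (1.07, adjusted p = 0.0767). The summed level of the list was 259.9 to 369.6 CPM in HIRA KO males against 123 to 154 CPM and 364 to 519 CPM in HIRA KO females against 143 to 269 CPM. WT female replicate 1 had the highest Krt19, Krt7, Spp1 and Epcam of its group. Without WT female replicate 3, 3 members were called in place of 7. The Spp1 call was lost without HIRA KO female replicate 3, HIRA KO male replicate 1 or WT female replicate 3, and the Sox9 call without HIRA KO male replicate 3 or WT female replicate 3.

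Of 35 genes known from fetal liver or liver tumours 7 were called higher and 0 lower (median 0.72), and 9 higher in females alone. Scd2 was described above. Sox4, a transcription factor of progenitor cells, was at 24.5, 19.2 and 37.1 CPM in HIRA KO males against 5.55, 4.02 and 4.12 CPM and at 16.0, 21.8 and 28.5 CPM in HIRA KO females against 6.72, 7.25 and 4.07 CPM (2.22, SE 0.22, adjusted p = 3.04e-05). Anxa2 (1.51), vimentin (Vim, 1.37) and Ly6d (2.29) separated the genotypes in both sexes as well.

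Jchain and Igkc, transcripts of antibody-producing cells, were called higher. Jchain, which joins secreted antibodies, was at 193, 93.2 and 263 CPM in HIRA KO males against 16.4, 32.5 and 8.04 CPM and at 49.0, 119 and 64.9 CPM in HIRA KO females against 6.06, 14.3 and 7.44 CPM (3.17, SE 0.37, adjusted p = 0.000132). Igkc, the kappa constant region, was at 618, 241 and 894 CPM and 135, 324 and 242 CPM in HIRA KO against 56.3, 156 and 34.6 CPM and 18.8, 67.2 and 16.1 CPM (2.80, adjusted p = 0.00158). Over all immunoglobulin segments, 6 of 12 constant and 16 of 145 variable segments were called higher and 0 lower, and in females alone 7 of 11 and 20 of 122. With Cr2, Jchain and Igkc were the 3 called of 17 B and plasma cell markers, and in females alone 3 were called higher, Jchain, Igkc and Ighm. The Cr2 call was lost in 8 of the 12 fits that left out 1 mouse, and was retained without HIRA KO female replicate 1 and without each of the HIRA KO males.

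Of 29 macrophage markers 4 were called higher and 1 lower, with a median of −0.05, and in females alone 5 higher and 2 lower. Cd9 (1.08) separated the genotypes in both sexes. Gpnmb, a marker of lipid-laden macrophages, was at 0.906, 22.9 and 35.7 CPM in HIRA KO females and at 2.89, 2.17 and 0.828 CPM in HIRA KO males, against 0.198 to 1.14 CPM in WT (3.51, adjusted p = 0.00442). It was highest in HIRA KO female replicates 2 and 3, which also had the highest Lpl, and did not pass the test within males (1.20, adjusted p = 0.404). Itgax and Ly6c2 were the other higher members and Spic the lower one, the last at 0 to 0.155 CPM in HIRA KO males against 0.883 to 4.51 CPM and overlapping in females. Clec4f, the defining Kupffer cell gene, did not pass the test (−0.27, adjusted p = 0.391). The Kupffer and macrophage list summed to 544 to 656 CPM in HIRA KO males and 389.8 to 922 CPM in WT males, and to 682 to 926 CPM and 689 to 847 CPM in females. The higher count was 2 without HIRA KO female replicate 2, WT female replicate 3 or WT male replicate 1. Without HIRA KO male replicates 2 or 3 it was 6. The lower count was 2 in place of 1 without HIRA KO female replicate 1, HIRA KO male replicates 2 or 3, or WT male replicate 2. Ccl5, Cd3g and Nkg7 were called of 24 T and NK cell markers, and only Ccl5 (1.95, adjusted p = 0.0028) kept its call in all 12 fits that left out 1 mouse and was called in females alone. The count of these fell to 1 without HIRA KO female replicates 2 or 3, WT female replicate 3 or any WT male, and was 5 without HIRA KO male replicate 2. Of 12 neutrophil markers 0 were called over both sexes by edgeR or DESeq2, with 1 higher and 1 lower at an unadjusted p under 0.05, and 4 were called higher in females alone.

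Of 39 acute phase and cytokine genes 6 were called higher and 1 lower, and in females alone 6 and 1. Vcam1, an adhesion molecule for leukocytes, was at 28.9 to 48.7 CPM in HIRA KO females against 15.2 to 17.6 CPM and at 16.2 to 29.3 CPM in HIRA KO males against 10.2 to 11.5 CPM (1.14, adjusted p = 0.00061). Cx3cl1 (2.11) also separated the genotypes in both sexes. Cxcl1, a neutrophil attractant, was at 18.9, 44.0 and 48.6 CPM in HIRA KO females against 5.07, 4.94 and 9.03 CPM and overlapped in males (1.42, adjusted p = 0.00415). Saa3 (1.84) and Ly6d were among the higher members, and Ccl9 was the lower one, with 2 lower without HIRA KO female replicate 2 or HIRA KO male replicate 1. Of 35 interferon response genes Ifit3b was called lower (−2.67) and 0 higher by edgeR and DESeq2, near the background, with Ifit3b again the 1 called in females alone and 2 higher at an unadjusted p under 0.05. Without HIRA KO male replicate 2 the lower count was 4, and without HIRA KO male replicate 1 or WT male replicate 3 it was 2. Ifit3b had 0 counts in HIRA KO male replicates 2 and 3, and without HIRA KO male replicate 1 its fitted log2 fold change was −5.35, while in females alone it was −1.19.

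Of 29 genes of p53, senescence and growth arrest, 4 were called higher, among them Gadd45b, Cdkn2c and Cdkn1a, and 0 lower by edgeR, with 1 lower by DESeq2 and 3 lower at an unadjusted p under 0.05. In females alone 2 were called higher, Gadd45b and Btg2. Gadd45b, which responds to stress signals, was at 5.81 to 17.1 CPM in HIRA KO females against 2.82 to 3.41 CPM and at 2.74 to 5.33 CPM in HIRA KO males against 0.571 to 2.39 CPM (1.77, adjusted p = 0.00574). Cdkn1a, which encodes the cell cycle inhibitor p21, was at 48.9, 13.9 and 11.4 CPM and 7.73, 16.6 and 10.7 CPM in HIRA KO males and females against 12.5, 11.3 and 6.45 CPM and 7.81, 3.22 and 2.78 CPM (1.31, adjusted p = 0.0403), a call lost in 8 of the 12 fits that left out 1 mouse and retained without HIRA KO female replicate 1, HIRA KO male replicates 2 or 3, or WT female replicate 1. Without WT male replicate 1 this list held 1 call in place of 4, and 2 without HIRA KO female replicates 2 or 3, WT female replicates 2 or 3, or WT male replicates 2 or 3. Mki67, a marker of dividing cells, was the 1 of 44 cell cycle genes called, at 7.52, 5.20 and 7.03 CPM in HIRA KO females against 2.04, 3.22 and 2.28 CPM and at 4.27, 2.74 and 2.02 CPM in HIRA KO males against 0.882, 1.28 and 1.53 CPM (1.34, adjusted p = 0.0137). Without HIRA KO male replicates 2 and 3 the cell cycle list held 5 and 4 calls, and 2 without HIRA KO male replicate 1 or WT female replicate 1. In females alone 2 of its members were called higher and 2 lower. Atf3 and Creld2 were the 2 called of 29 genes of the unfolded protein and integrated stress response, with 0 calls without WT female replicate 3 or WT male replicate 2, 1 without HIRA KO female replicate 2, HIRA KO male replicate 1 or WT male replicate 3, and 4 and 6 without HIRA KO male replicates 2 and 3. In females alone 6 members of that list were called higher and 1 lower, beside 3.4% and 1.65% of all genes. They included the chaperone gene Hspa5 (1.13 in females alone) and, on the lower side, Trib3 (−2.14). Of 18 clock genes 0 were called over both sexes by edgeR or DESeq2, with 2 higher and 5 lower at an unadjusted p under 0.05, and in females alone 1 was called higher and 2 lower.

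The effect of genotype differed between the sexes for 40 genes (0.18% of those tested; male minus female log2 fold change, adjusted p below 0.05). This count was 18 to 219 in the fits that each left out 1 mouse, and 380 by DESeq2. Of the 40 genes, the 4 with the smallest adjusted p among those averaging at least 5 CPM in 1 group were Xist and 3 cytochrome P450 genes with sex-biased levels. Cyp2b13, a female form, was at 207, 329.8 and 327 CPM in HIRA KO males against 2.44, 0.932 and 0.133 CPM in WT males, and at 663, 223 and 94.0 CPM and 196, 307 and 351 CPM in females of the 2 genotypes (difference between the sexes 7.68, SE 0.95, adjusted p = 0.00291). All differences between the sexes use the HIRA KO male libraries, and the part of those libraries' properties was not tested. Cyp2a22, also a female form, was at 46.2, 82.2 and 64.6 CPM against 4.46, 1.77 and 2.19 CPM in males and overlapped in females. Cyp2d9, a male form, was at 133, 136 and 116 CPM in HIRA KO females against 13.8, 15.3 and 17.0 CPM, and at 1342, 1057 and 1347 CPM and 1106, 1242 and 781 CPM in males, which overlapped (difference −2.81, SE 0.26, adjusted p = 0.000274). As shares of the HIRA KO female mean, HIRA KO males held between 1.80% and 3.22% for Xist, 63.3% and 100.9% for Cyp2b13 and 20.4% and 36.2% for Cyp2a22.

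**Figure D5:**
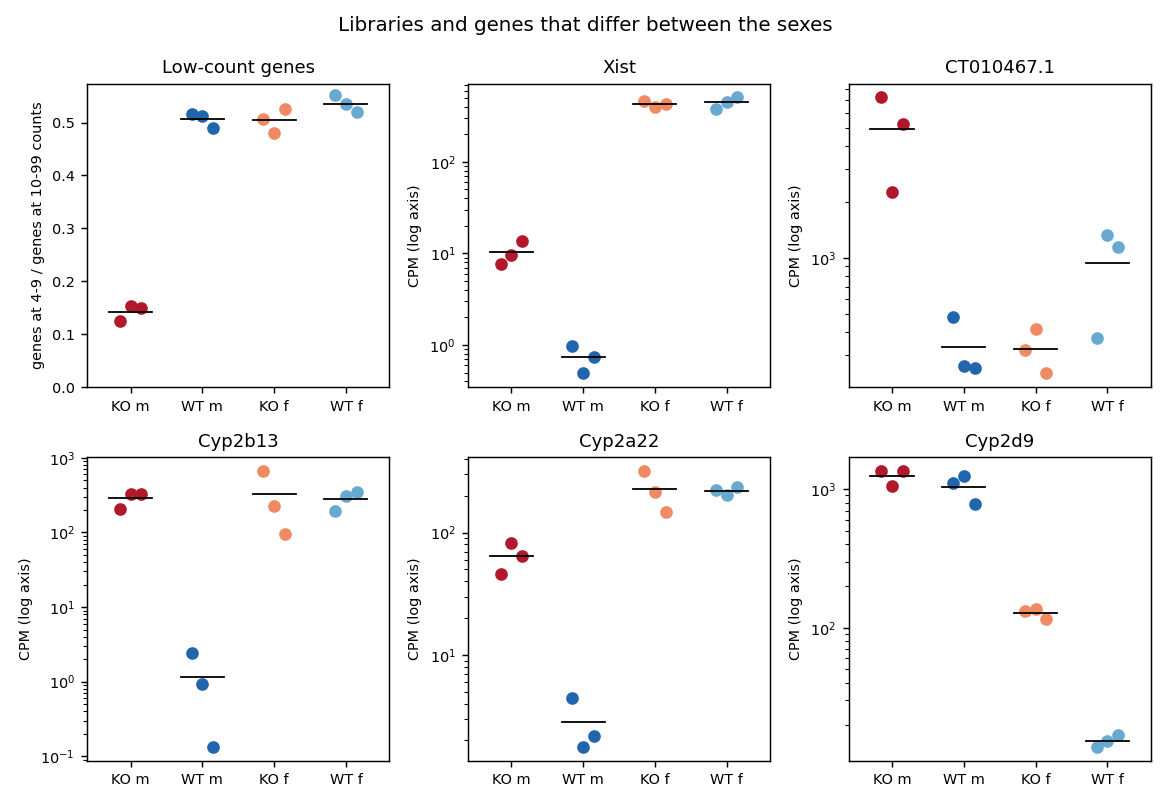
The ratio of genes at 4 to 9 counts to genes at 10 to 99 counts per library (linear axis), and levels in CPM (log axes) of Xist, CT010467.1, Cyp2b13, Cyp2a22 and Cyp2d9, by mouse and group (KO, HIRA KO; WT, WT AAV Tbg-Cre; m, males; f, females), with lines at group means. The 3 HIRA KO males stand apart in the ratio, Xist and CT010467.1, reach female levels of Cyp2b13, and Cyp2d9 is higher in HIRA KO females than in WT females.

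Genes beside Hira were read because they share its chromosome segment with the floxed allele. Of 170 tested genes within 5 Mb of Hira on chromosome 16, 5 were called higher and 1 lower, near the background shares, with a median of −0.13, and in females alone 7 higher and 0 lower of 151 tested. In all, 100 had a log2 fold change below 0 and 70 above. For 12 of the 170 every HIRA KO mouse lay below every WT mouse of its sex, and for 1 above, beside 4.63% and 2.66% of all tested genes. Those called over both sexes were 2510009E07Rik (1.04), Camk2n2 (1.62), Tmem191c (2.42) and the immunoglobulin lambda segments Iglv1 (2.67) and Iglc2 (1.97), and on the lower side Ypel1, which had 0 counts in the 3 HIRA KO males, under 1 CPM in WT males and overlapping levels in females. The log2 fold change of Tmem191c was 1.47 without HIRA KO male replicate 3, and that of Iglv1 was 3.49 without WT male replicate 2. Leaving out 1 mouse moved these counts to between 1 and 8 higher, the lowest without WT female replicate 3 and the highest without HIRA KO male replicates 1 or 2, and to between 0 and 3 lower. Nnt, which differs between C57BL/6 substrains, was under 2 CPM in every mouse and did not pass the test (−0.52, SE 0.71, adjusted p = 0.71).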

How the data were processed

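Poly-A RNA of whole liver was sequenced by the authors with a directional kit. Per the paper's methods, reads were trimmed, aligned to mm10 with STAR and counted on genes with HOMER, and the submitters' processing notes name STAR, HTSeq and Cufflinks. The strand setting of counting is not given in the sources used here, so antisense and overlapping genes are uncertain. The deposited counts are whole reads per gene without normalization. The FPKM table and the 6 columns of mice without Cre were not used here, and 0 columns were left unmatched.

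Counts of the 12 mice were fitted with edgeR 4.0.16 in R 4.3.3 (TMM, quasi-likelihood test, 4 group means). The test took genes whose counts summed to 10 or more over the 12 mice. The contrasts were the mean of the sexes, each sex, and their difference. CPM divide by library total times TMM factor (0.9166 to 1.096). The authors used DESeq2. Adjusted p-values in the text are Benjamini-Hochberg values of edgeR's test over all tested genes. The design text of the series calls the replicates independent. The chi-square per gene between replicates, 17.2 to 77.8, exceeded sampling noise. The code was tested on simulated data.

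Genes were named by rule: HIRA and H3.3 genes and fixed liver markers; the 12 higher and 12 lower genes with the smallest adjusted p, at least 5 CPM in the higher genotype and no overlap in either sex; up to 5 called members of each of 33 lists, and members that spell out small counts; 4 genes that differ between the sexes; and called genes within 5 Mb of Hira. Members of lists that were not called were named as contrasts after their values were seen, as was CT010467.1. The comparison, the lists and the rule were chosen with earlier results of these data known. A few genes are not reported here by name. Gene positions are from GENCODE M21. Alternatives were DESeq2 1.42.0, RLE, no filter, filterByExpr, an additive model, the replicate block, separate fits within each sex, limma 3.58.1 voom with sample quality weights, leaving out each mouse and, added after the data were seen, testing only genes above 5 CPM in at least 3 mice, and list counts in females alone. Figures were drawn with matplotlib 3.10.9.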

Additional observations from a re-analysis of the deposited data

Results flagged for a closer look

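The effect of HIRA KO differed between the sexes for 40 genes, a count that was 18 to 219 with 1 mouse left out and 380 by DESeq2. Among genes named by rule, the male log2 fold change exceeded the female one, by the test of the difference, for Xist (3.87, adjusted p = 0.000274), Cyp2a22 (4.47, 0.000863), Cyp2b9 (5.20, 0.00442), Cyp2b13 (7.68, 0.00291), Sult2a7 (7.85, 0.00429) and Vldlr (4.51, 0.0456). It lay below the female one for Nat8 (−2.62, 0.0113), Cyp2d9 (−2.81, 0.000274), C8b (−2.76, 0.0456) and C6 (−1.89, 0.0299).

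Nat8, the acetyltransferase gene, rose in both sexes, with 5.56 to 9.86 CPM in HIRA KO females against 0.397 to 0.521 CPM, and 43.5 to 77.5 CPM in HIRA KO males against 23.0 to 27.0 CPM. Sult2a7, a sulfotransferase gene, was at 0.160, 0 and 0.112 CPM in HIRA KO females against 4.88, 8.41 and 12.8 CPM and at 17.6, 3.82 and 11.5 CPM in HIRA KO males against 7.06, 2.36 and 3.59 CPM. With at most 3 counts in each HIRA KO female, the fitted difference for Sult2a7 depends on the prior count and is no bound. C8b, a complement component, was at 85.0, 33.9 and 52.0 CPM in HIRA KO males against 239.5, 414 and 263 CPM and overlapped in females. Each of these differences uses the 3 HIRA KO male libraries, which stood apart in Xist and in low-count genes, and the part of these properties was not tested.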

How the results depend on the processing

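Of the 130 named genes called over both sexes, 126 kept their call with DESeq2, 129 with RLE, 130 with filterByExpr, 128 with no filter, 122 with voom and sample quality weights, 106 in the additive model, 121 with the replicate block and 101 to 125 in the fits that each left out 1 mouse, and 113 of the 117 that a minimum of 5 CPM retained. The sign turned for 1 named gene, the Y-linked Ddx3y, whose log2 fold change was −0.18 in the additive model against 2.06. Ddx3y had at most 3 counts in each WT female, and HIRA KO females averaged 0.875 times the level of 3 counts. The value of 2.06 therefore includes a female contrast at the lowest counts. The counts of called genes moved more. DESeq2 gave 891 higher over both sexes, 854 higher and 663 lower in males, 510 and 212 in females, 230 higher in both, and 380 that differed between the sexes. No filter gave 864 higher over both sexes, 864 higher in males, 452 and 278 in females, 206 and 92 in both, and 498 that differed between the sexes. Voom with weights (0.242 to 0.378 for HIRA KO males, 0.83 to 2.71 otherwise) gave 156 lower in males, 1072 and 459 in females, and 77 that differed between the sexes. Separate fits gave 112 and 94 in males, 659 and 319 in females, and 55 higher in both. The minimum of 5 CPM gave 151 lower over both sexes and 169 in males, the additive model 194 lower over both sexes, and filterByExpr 69 that differed between the sexes. The cause of these shifts was not tested.

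Of 41 counts of called list members over both sexes, 34 stayed within 1.5 times under DESeq2, 41 with RLE, 39 with filterByExpr, 34 with no filter, 36 with voom, 34 with the minimum of 5 CPM, 32 in the additive model and 37 with the replicate block. DESeq2 gave 11 cholangiocyte markers, 3 cell cycle genes, 4 genes of the unfolded protein response and 8 genes near Hira higher, and 1 transcription factor, 2 interferon genes and 3 macrophage markers lower. No filter gave 11 cholangiocyte markers, 3 cell cycle genes and 8 genes near Hira higher, and 4 triglyceride synthesis genes, 4 macrophage markers, 2 acute phase and 2 interferon genes lower, and filterByExpr 2 cell cycle genes higher and 2 macrophage markers lower. The additive model gave 5 cytochrome P450 genes in place of 8, 2 p53 genes in place of 4, 1 fatty acid oxidation gene in place of 2, 0 lipoprotein genes in place of 1 and 0 sex-linked genes in place of 2 higher, 2 plasma protein genes in place of 4 lower, and 0 macrophage, interferon and Hira-window genes in place of 1 lower each. Voom gave 4 triglyceride synthesis genes lower, 1 fatty acid oxidation gene, 0 lipoprotein genes and 1 sex-linked gene higher, and 0 Hira-window genes lower. The minimum of 5 CPM gave 1 T and NK cell marker, 2 cell cycle genes, 1 glucuronidation gene and 2 genes near Hira higher, and 1 transcription factor, 0 interferon and 0 Hira-window genes lower. The replicate block gave 1 fatty acid oxidation gene higher, and 2 interferon genes, 2 macrophage markers and 0 Hira-window genes lower. Beside the 0 calls by edgeR given above for bile acid genes and transcription factors (higher) and for cholangiocyte markers (lower), DESeq2 also gave 0, with 2, 1 and 1 members at an unadjusted p under 0.05, and for triglyceride synthesis (higher), stellate and fetal genes (lower) both counts were 0.

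With 1 mouse left out at a time, the counts over both sexes ranged from 368 to 799 higher and 214 to 686 lower, in males 153 to 687 and 172 to 856, in females 88 to 384 and 77 to 235, in both sexes 49 to 152 and 29 to 71, and 18 to 219 genes differed between the sexes. Leaving out any HIRA KO male raised both counts over both sexes. Replicate numbers are shared by the labels, and deviations of same-numbered mice correlated between −0.19 and 0.14. Correlations over many genes cannot exclude a link between same-numbered mice that acts on part of those genes. With the replicate block 470 genes were called higher and 254 lower over both sexes, and 273 lower in males in place of 412. Of the tested genes 9260 averaged at most 1 CPM over the 12 mice, and 68 of them were called higher and 149 lower over both sexes.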
